A study of Mus musculus with 7 samples.

Results

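LPS Fth1-low cells are lung myeloid cells, sorted 3 days after intratracheal lipopolysaccharide, from the gate with low ferritin heavy chain reporter signal. They were compared with both other groups of the study at once: their group mean was set against the mean of the untreated Fth1-low group and the LPS Fth1-high group, on the log2 scale. The group held 2 of the 7 libraries, and the comparison used 2 untreated Fth1-low and 3 LPS Fth1-high libraries. Of 26130 genes in the count table, 13665 had enough counts to be tested, and 158 were higher and 3 lower in LPS Fth1-low cells at an adjusted p below 0.05.

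All mice in the 3 groups were Fth1-mScarlet x Lyz2GFP animals, which carry a red reporter named for the ferritin heavy chain gene Fth1 and a green reporter named for the myeloid lysozyme gene Lyz2. Every library came from lung cells sorted as Lyz2GFP+CD11b+Ly6C+Ly6G-, so the controls share both reporters and the same surface gate. Cells of the LPS Fth1-low and LPS Fth1-high groups came from mice given 20 µg of E. coli 0111:B4 lipopolysaccharide in 50 µl and were split by low or high Fth1-mScarlet. The untreated Fth1-low group came from mice that received no treatment, and were sorted for low Fth1-mScarlet. The labels give neither age nor sex, and do not say whether a replicate is 1 mouse or a pool, so each p-value reflects only how these libraries vary, which may be technical. A sorted group can hold several cell types, and in these bulk libraries fewer cells of a type and less RNA per cell cannot be told apart.

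Lipopolysaccharide is sensed by Toll-like receptor 4, which activates NF-kB and interferon regulatory factors and induces cytokines, chemokines and costimulatory molecules in monocytes and macrophages. Interleukin-12 and interleukin-27 from such cells act on T and NK cells, and interferon-gamma made by those lymphocytes in turn induces Irf1, guanylate-binding proteins and the chemokines Cxcl9, Cxcl10 and Cxcl11. Monocytes recruited to an inflamed lung lose genes of the circulating monocyte and gain macrophage genes, and ferritin heavy chain stores the iron that macrophages take up.

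The first LPS Fth1-low library was far shallower than the rest. It held 637787 counts, against 19001523 in the second and 10459703 to 27997007 in the 5 libraries of the other groups, so that 1 count equals 1.67 CPM (counts scaled to a common library size with the trimmed mean of M values) there and 0.0353 to 0.0932 CPM elsewhere. Ribosomal RNA genes took 19.5% of its counts, 1.87% in the second library and 0.706% to 8.43% in the other groups. Across 4147 genes at 50 CPM or more in either of the pair, 88.8% lay within 2-fold of each other, 162 were over 2-fold higher in the first library and 301 in the second. The genes over 2-fold higher in the first included matrix genes such as the connective tissue growth factor gene Ccn2 (335 against 21.1 CPM), the basement membrane gene Hspg2 (333 against 27.9 CPM) and the collagen gene Col1a1 (80.4 against 6.58 CPM). The first LPS Fth1-high library was also raised, at 124 CPM for Ccn2, 146 CPM for Hspg2 and 24.9 CPM for Col1a1, against 1.95 to 18.6 CPM for these genes in the other 4 libraries of both groups. They were named after their values were seen. Values of both libraries are given apart throughout.

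The sorted cells carried the transcripts of the gate. Lyz2 stood at 7123 and 9151 CPM in the first and second LPS Fth1-low library and at 6140 to 12500 CPM in the other groups, and the integrin gene Itgam (CD11b) at 750 and 1116 CPM against 937 to 2109 CPM. No library had more than 2 counts of the neutrophil gene Ly6g. Fth1 measured 1786 and 1672 CPM in untreated cells, 2970 and 4825 CPM in the first and second LPS Fth1-low library, and 13231, 20999.8 and 20473 CPM in LPS Fth1-high cells. The LPS Fth1-low libraries thus lay between the other groups without overlap, and Fth1 was not called against their mean (log2 difference -0.53, SE 0.30, adjusted p = 0.701). Fth1 is the gene the gate selects on, so its difference from LPS Fth1-high cells is a check of the sort and not a result.

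Most calls were rises. The 158 genes called higher were 1.16% of those tested and the 3 called lower 0.022%, by edgeR's quasi-likelihood test with Benjamini-Hochberg adjustment. At an unadjusted p below 0.05, 832 genes were higher and 365 lower. The LPS Fth1-low group mean was the highest of the 3 in 24.9% and the lowest in 34.2% of all tested genes. Without the first LPS Fth1-low library 119 genes were higher and 0 lower, and without the second 50 were higher and 8 lower. All 158 had a positive difference in both of these fits, 106 and 34 of them stayed called, and 29 did so in both. The plot of each library's contrast shows the pair side by side.

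**Figure D1:**
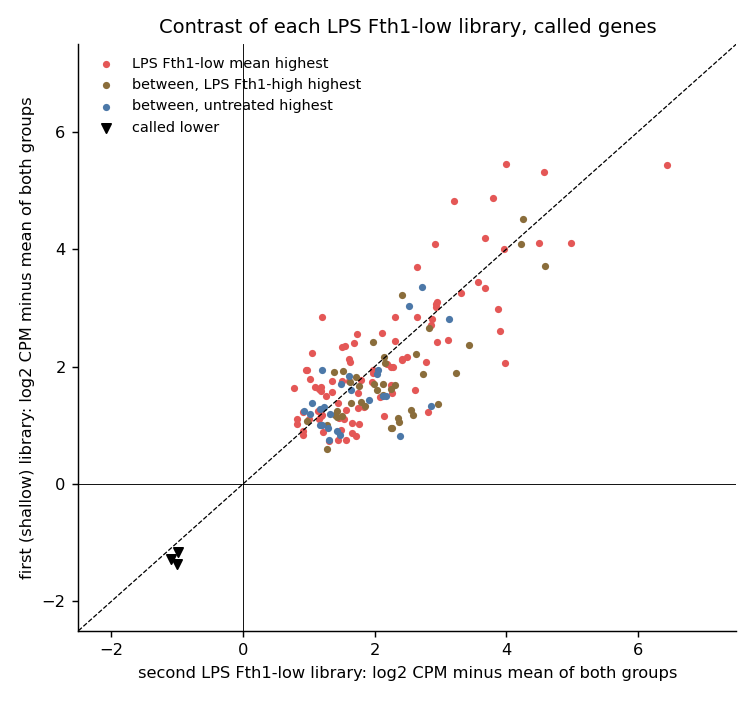
Difference of each LPS Fth1-low library from the mean of both other groups for the 161 called genes, in log2 CPM with a prior count of 2, the second library on the x axis and the shallow first library on the y axis. Colours give the order of the group means, and all 158 genes called higher lie above 0 in both libraries while the 3 called lower (triangles) lie below 0 in both.

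A gene can be called against the mean of 2 groups and still lie between them. Among the 158 genes, the LPS Fth1-low mean was the highest of the 3 for 92, and in 63 of those both of its libraries lay above all other 5, as in 3.11% of all tested genes. For 40 genes the LPS Fth1-high mean was higher still, and all 40 were higher than in untreated cells. For the other 26 the untreated mean was highest, and all 26 were higher than in LPS Fth1-high cells. Against single groups, 2.99% of all tested genes were higher and 0.629% lower than in untreated cells, and 4.57% were higher and 3.68% lower than in LPS Fth1-high cells. Both of those comparisons use the same LPS Fth1-low libraries. Of the 92 genes with the highest mean, 29 passed the test against each group on its own.

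**Figure D2:**
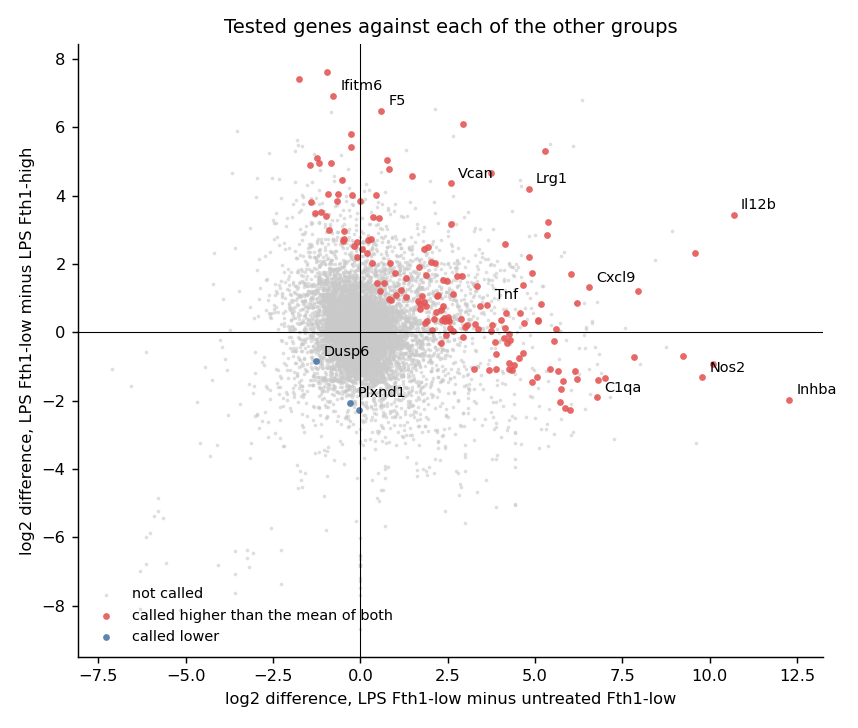
Each tested gene by its log2 difference from untreated Fth1-low cells (x axis) and from LPS Fth1-high cells (y axis), as fitted by edgeR. Genes called higher than the mean of both groups are red and the 3 called lower are blue, and Il12b sits to the upper right while Nos2 and Inhba are right of and below 0. Both axes share the LPS Fth1-low libraries, so the arrangement of points carries no test.

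A stricter test asked for a difference from each group, taking the larger of the 2 pairwise p-values and adjusting over all 13665 genes. Only Il12b passed as a peak (0.00732% of tested genes) and 0 genes passed as a dip, in edgeR. At an unadjusted p below 0.05 this test gave 119 peaks and 40 dips. DESeq2 gave 23 peaks and 0 dips, and limma-voom 3 peaks and 0 dips. The 23 genes of DESeq2 included Il12b, Vcan, Lrg1, Mmp25, Cxcl9, Cxcl10, Ccl4, Ccl22, Il27, Irf1 and Cd40, which are described below.

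Il12b encodes the p40 subunit shared by interleukin-12 and interleukin-23 (chromosome 11, 44400063 to 44414033, plus strand, mm10). It had 1 count in the first untreated library and 0 in the second, 36.8 and 73.8 CPM in the first and second LPS Fth1-low library, and 5.71, 3.98 and 6.54 CPM in LPS Fth1-high cells. Both LPS Fth1-low libraries were above all others, and the 22 counts behind the first give an exact Poisson interval of 23.1 to 55.8 CPM, which covers counting error only. Relative to LPS Fth1-high cells Il12b was higher by 3.44 on the log2 scale (SE 0.33, adjusted p = 4.26e-04). Relative to the single untreated count, the CPM ratio was 1279.5 in the first LPS Fth1-low library (exact binomial interval 207 to 52806) and 2562 in the second (459 to 101267). Its difference from the mean of both groups was 7.06 (SE 0.39, adjusted p = 1.55e-04), 7.44 without the first LPS Fth1-low library and 6.38 without the second. As a peak its adjusted p was 0.026. That call was lost without any 1 of 5 libraries, with adjusted p-values of 0.0554 without the first LPS Fth1-low library, 0.232 without the second, 0.067 without the second untreated library, 0.101 without the first LPS Fth1-high library and 0.0818 without the third. It was also lost with limma-voom (0.0661), limma-voom with quality weights (0.144) and limma-trend (0.397).

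The genes of other interleukin subunits differed in pattern, with Il12a unlike Il12b and Il27 closer to it. Il12a, which encodes the p35 subunit of interleukin-12, measured 0.25 and 0.0932 CPM in untreated, 18.4 and 24.5 CPM in LPS Fth1-low and 40.01, 82.3 and 57.5 CPM in LPS Fth1-high cells. The LPS Fth1-low libraries lay between the other groups without overlap, and Il12a was lower than in LPS Fth1-high cells by a log2 difference of -1.40 (SE 0.34, adjusted p = 0.0348). It was called against the mean of both groups (2.70, SE 0.37, adjusted p = 0.00797), a call lost without the second LPS Fth1-low library (2.38, adjusted p = 0.149). Il23a, the p19 subunit of interleukin-23, had 0 counts in the first LPS Fth1-low library, which allows up to 5.02 CPM, and 4.63 CPM in the second. Il27, the p28 subunit of interleukin-27, rose to 51.9 and 29.1 CPM from 6.29 and 11 CPM in untreated cells and 11.5, 9.31 and 7.11 CPM in LPS Fth1-high cells. Both LPS Fth1-low libraries were the highest, with log2 differences of 2.14 from untreated and 2.03 from LPS Fth1-high cells (adjusted p = 0.0185 and 0.00808). Il27 overlaps Apobr on the opposite strand, and its call against the mean (2.08, SE 0.32, adjusted p = 0.0147) was lost without the first LPS Fth1-low library (1.74, 0.094), the second (2.53, 0.0631) or the first untreated library (1.89, 0.0528).

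Of the 158 genes called higher, 15 were on the list of cytokines and chemokines. These were 15 of 31 tested members, with 0 lower, against 1.16% higher and 0.022% lower of all tested genes. The median log2 difference was 1.87 against -0.04 over all tested genes. The 15 were Il12a, Il12b, Il27, Il1rn, Tnf, Nos2, Ccl2, Ccl4, Ccl7, Ccl12, Ccl22, Cxcl9, Cxcl10, Cxcl11 and Cxcl16. In 11 of them the LPS Fth1-low mean was highest, and in 4 (Il12a, Ccl7, Cxcl16 and Nos2) the LPS Fth1-high mean was higher. Of the 11, 9 had both LPS Fth1-low libraries above the other 5, against 3.11% of all tested genes. Against single groups, 24 of the 31 were higher than in untreated cells, 8 were higher than in LPS Fth1-high cells and 6 were lower. The matching shares of all tested genes were 2.99%, 4.57% and 3.68%. With 1 LPS Fth1-low library left out, 13 were called without the first and 10 without the second.

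**Figure D3:**
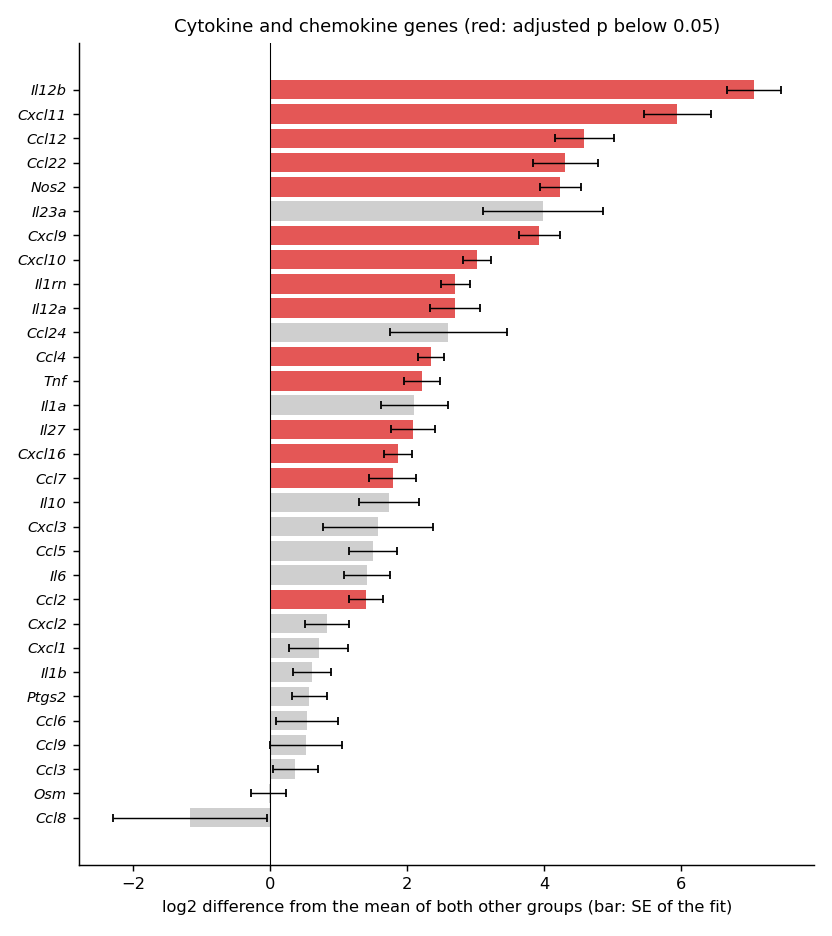
Log2 difference of LPS Fth1-low cells from the mean of both other groups for the 31 tested cytokine and chemokine genes, with the SE of the fit as the bar. Red bars are the 15 genes at an adjusted p below 0.05, from Il12b at 7.06 down to Ccl2 at 1.40, and 29 of the 31 lie above 0.

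Cxcl9, Cxcl10 and Cxcl11, the ligands of the chemokine receptor Cxcr3, were all called higher. Cxcl9 measured 7.0 and 16.4 CPM in untreated cells, 1079.8 and 1056 CPM in the first and second LPS Fth1-low library, and 449, 505 and 328 CPM in LPS Fth1-high cells. Cxcl10 measured 33.6 and 36.0, then 926 and 838, then 342, 421 and 258 CPM in the same order. For both genes the LPS Fth1-low libraries were above all others, with LPS Fth1-high cells in the middle. Cxcl9 was higher than in LPS Fth1-high cells by 1.32 (SE 0.33, adjusted p = 0.0379) and Cxcl10 by 1.37 (SE 0.23, adjusted p = 0.00712). Against the mean of both groups the differences were 3.93 (SE 0.30, adjusted p = 3.59e-04) and 3.02 (SE 0.21, adjusted p = 2.28e-04), and both genes stayed called without any 1 of the 7 libraries. Cxcl11 was at 36.8 and 22.2 CPM against 4.35 to 7.36 CPM in LPS Fth1-high cells, with 1 count in the untreated group. It is annotated as a polymorphic pseudogene, and both Cxcl10 and Cxcl11 overlap Art3 on the opposite strand.

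The promoter letters of 3 interferon-induced genes are shown because their genes rose together in LPS Fth1-low cells and carry the motif letters searched. The windows run from 250 bases before to 50 bases after the RefSeq start on GRCm38.p6, 5′ to 3′ on the gene's strand, with every match in capitals. Cxcl10 lies on the minus strand (chr5:92348840-92349139), Gbp5 on the plus strand (chr3:142496684-142496983) and Irf1 on the plus strand (chr11:53769764-53770063).
Cxcl10: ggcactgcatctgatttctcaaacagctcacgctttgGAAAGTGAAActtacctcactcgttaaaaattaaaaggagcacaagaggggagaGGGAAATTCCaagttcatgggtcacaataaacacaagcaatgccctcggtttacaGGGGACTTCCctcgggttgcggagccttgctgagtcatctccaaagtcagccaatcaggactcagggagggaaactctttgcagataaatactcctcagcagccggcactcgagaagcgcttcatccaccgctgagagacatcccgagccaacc
Gbp5: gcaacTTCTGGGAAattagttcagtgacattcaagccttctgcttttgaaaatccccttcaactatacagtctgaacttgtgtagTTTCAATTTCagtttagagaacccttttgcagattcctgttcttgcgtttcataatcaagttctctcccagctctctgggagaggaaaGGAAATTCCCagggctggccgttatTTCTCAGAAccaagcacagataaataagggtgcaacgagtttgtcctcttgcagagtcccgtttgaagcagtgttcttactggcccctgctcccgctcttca
Irf1: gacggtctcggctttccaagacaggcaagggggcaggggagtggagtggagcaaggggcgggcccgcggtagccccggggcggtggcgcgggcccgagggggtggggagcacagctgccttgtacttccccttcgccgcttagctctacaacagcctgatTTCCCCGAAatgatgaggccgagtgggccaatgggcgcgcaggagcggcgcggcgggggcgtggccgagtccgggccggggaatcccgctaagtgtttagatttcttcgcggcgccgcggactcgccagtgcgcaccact
The search read 3 patterns on both strands: GGGNNNTTCC, an NF-kB-type site, TTTCNNTTTC, an interferon-stimulated response element, and TTCNNNGAA, a gamma-activated site. Cxcl10 holds the NF-kB letters with first bases at -159 and -104 and the interferon element at -213, counted from the start. Gbp5 holds 1 NF-kB match, 1 interferon element and 2 gamma-activated matches, and Irf1 1 gamma-activated match at -90.

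RefSeq windows were found for 68 of the 92 genes with the highest mean in LPS Fth1-low cells, for 44 of the 66 called genes that lay between the other groups, and for 10407 of all tested genes. The NF-kB letters stood in 11 of the 68 (16.2%), in 2 of the 44 (4.55%) and in 7.37% of all. The interferon element stood in 11 of the 68 (16.2%), 4 of the 44 (9.09%) and 3.95% of all, and the gamma-activated letters in 11 (16.2%), 6 (13.6%) and 8.25%. These shares are a description with no test, and a match is not a measured binding site. The Il12b window held none of the 3 patterns.

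Ccl4, Ccl22 and Ccl12 had their highest mean in LPS Fth1-low cells, unlike Ccl7 and Cxcl16. Ccl4, a chemokine of macrophages, measured 16.4 and 16.4 CPM in untreated cells, 146 and 184 CPM in LPS Fth1-low cells and 53.0, 75.8 and 66.4 CPM in LPS Fth1-high cells, with no overlap. Its difference from LPS Fth1-high cells was 1.36 (SE 0.21, adjusted p = 0.00473) and from the mean of both 2.35 (SE 0.19, adjusted p = 5.00e-04). Ccl22, a Ccr4 ligand made by dendritic cells and macrophages, measured 0.75 and 0.186 CPM, then 18.4 and 24.1 CPM, then 2.65, 1.22 and 3.04 CPM. Both LPS Fth1-low libraries were above every other library for Ccl22, on 11 counts in the first. Its difference from LPS Fth1-high cells was 3.24 (SE 0.52, adjusted p = 0.00552), and its call against the mean (4.31, adjusted p = 0.00233) was lost without the second LPS Fth1-low library (4.07, 0.0726). Ccl12, a monocyte chemokine of the Ccl2 family, was at 20.1 and 14.1 CPM against 4.55 to 9.09 CPM in LPS Fth1-high cells and 2 counts in all in untreated cells, but its difference from LPS Fth1-high cells missed the threshold (1.22, SE 0.40, adjusted p = 0.105).

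Tnf and Il1rn separated LPS Fth1-low cells from untreated cells more than from LPS Fth1-high cells. Tnf, the tumour necrosis factor gene, measured 13.9 and 21.8 CPM in untreated cells, 142 and 286 CPM in LPS Fth1-low cells and 138, 117 and 122 CPM in LPS Fth1-high cells. The first LPS Fth1-low library was only just above the highest LPS Fth1-high library. Its difference from LPS Fth1-high cells was 0.81 (SE 0.30, adjusted p = 0.15), and that from the mean of both was 2.22 (SE 0.27, adjusted p = 0.00367), a call lost without the second LPS Fth1-low library (1.58, 0.0663). Il1rn, which encodes the interleukin-1 receptor antagonist, measured 20.9 and 29.6, then 699.8 and 1006, then 612, 739 and 708 CPM, so the LPS groups overlapped.

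Genes induced by interferon-gamma followed, with 9 of 18 tested members higher and 0 lower, against 1.16% and 0.022% of all tested genes. Their median log2 difference was 1.33. The 9 were Gbp2, Gbp3, Gbp4, Gbp5, Gbp6, Gbp8, Iigp1, Irf1 and Socs1. Of the 18, 14 were higher than in untreated cells, and against LPS Fth1-high cells 1 was higher and 1 lower. Over all tested genes these shares were 2.99%, 4.57% and 3.68%. Without the first LPS Fth1-low library 6 were called, and without the second 3. Irf1, the interferon regulatory factor 1 gene, measured 241 and 259 CPM in untreated cells, 827 and 865 CPM in LPS Fth1-low cells and 481, 397 and 337 CPM in LPS Fth1-high cells. Both LPS Fth1-low libraries stood clear of the others, with log2 differences of 1.76 (SE 0.24, adjusted p = 0.0034) from untreated and 1.06 (SE 0.21, adjusted p = 0.0142) from LPS Fth1-high cells. The Irf1 call against the mean (1.41, adjusted p = 0.00696) was lost without the second LPS Fth1-low library (1.36, 0.0622) and without the first untreated library (1.38, 0.05). Irf1 overlaps Gm17334 on the opposite strand.

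Guanylate-binding protein genes, which encode GTPases that act on intracellular pathogens, rose over untreated cells without a call against LPS Fth1-high cells in most cases. Gbp5 measured 18.3 and 28.1, then 430 and 393, then 345, 288 and 207 CPM, and Gbp2 86.1 and 87.3, then 953 and 1409.6, then 1070.4, 1155 and 821 CPM. The Gbp5 values of LPS Fth1-low cells were above all others, and those of Gbp2 overlapped LPS Fth1-high cells. Gbp6 was lower than in LPS Fth1-high cells (log2 difference -0.97, SE 0.24, adjusted p = 0.0411). Of the 9 called genes of the list, Gbp2 and Gbp5 stayed called without any 1 of the 7 libraries. Type I interferon genes gave another picture, with 1 of 29 higher and 0 lower and a median of 0.23. Over all tested genes 1.16% were called higher and 0.022% lower. The called type I gene, Ifi205, measured 134 and 202, then 470 and 590, then 268, 308 and 266 CPM. Its call (1.29, adjusted p = 0.0171) was lost without the second LPS Fth1-low or the first untreated library. Among 17 NF-kB feedback genes 2 were higher, Bcl3 (1.05, SE 0.18, adjusted p = 0.0244) and Ikbke (1.01, SE 0.18, adjusted p = 0.0332). The Bcl3 call was lost in 6 of 7 fits that left out 1 library and the Ikbke call in all 7, with adjusted p-values of up to 0.111 and 0.138.

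Costimulatory molecules and antigen presentation parted. Of 13 members of the list, Cd40, Cd80 and Cd86 were higher, against 1.16% of all tested genes. The other 10, mostly genes of MHC class II and its loading, were not called. Cd40, a receptor for T cell help, measured 46.0 and 37.9 CPM in untreated cells, 156 and 224 CPM in LPS Fth1-low cells and 99.4, 87.9 and 92.5 CPM in LPS Fth1-high cells. Cd80, a ligand of CD28, measured 12.3 and 15.1, then 53.6 and 45.3, then 23.3, 28.2 and 26.9 CPM. In all 3 genes both LPS Fth1-low libraries were the highest. Cd40 and Cd80 were higher than in LPS Fth1-high cells (1.05, adjusted p = 0.0152, and 0.88, adjusted p = 0.0275), while Cd86 was not called there (0.82, adjusted p = 0.0538). Their calls against the mean of both groups, 1.62, 1.35 and 1.27, were each lost without the second LPS Fth1-low library, at adjusted p-values of 0.0566, 0.0648 and 0.101, and that of Cd86 also without either untreated library (0.0815 and 0.0503). The class II gene H2-Aa measured 848 and 986, then 1279 and 1735, then 3166, 2151 and 3233 CPM, between the other groups.

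**Figure D4:**
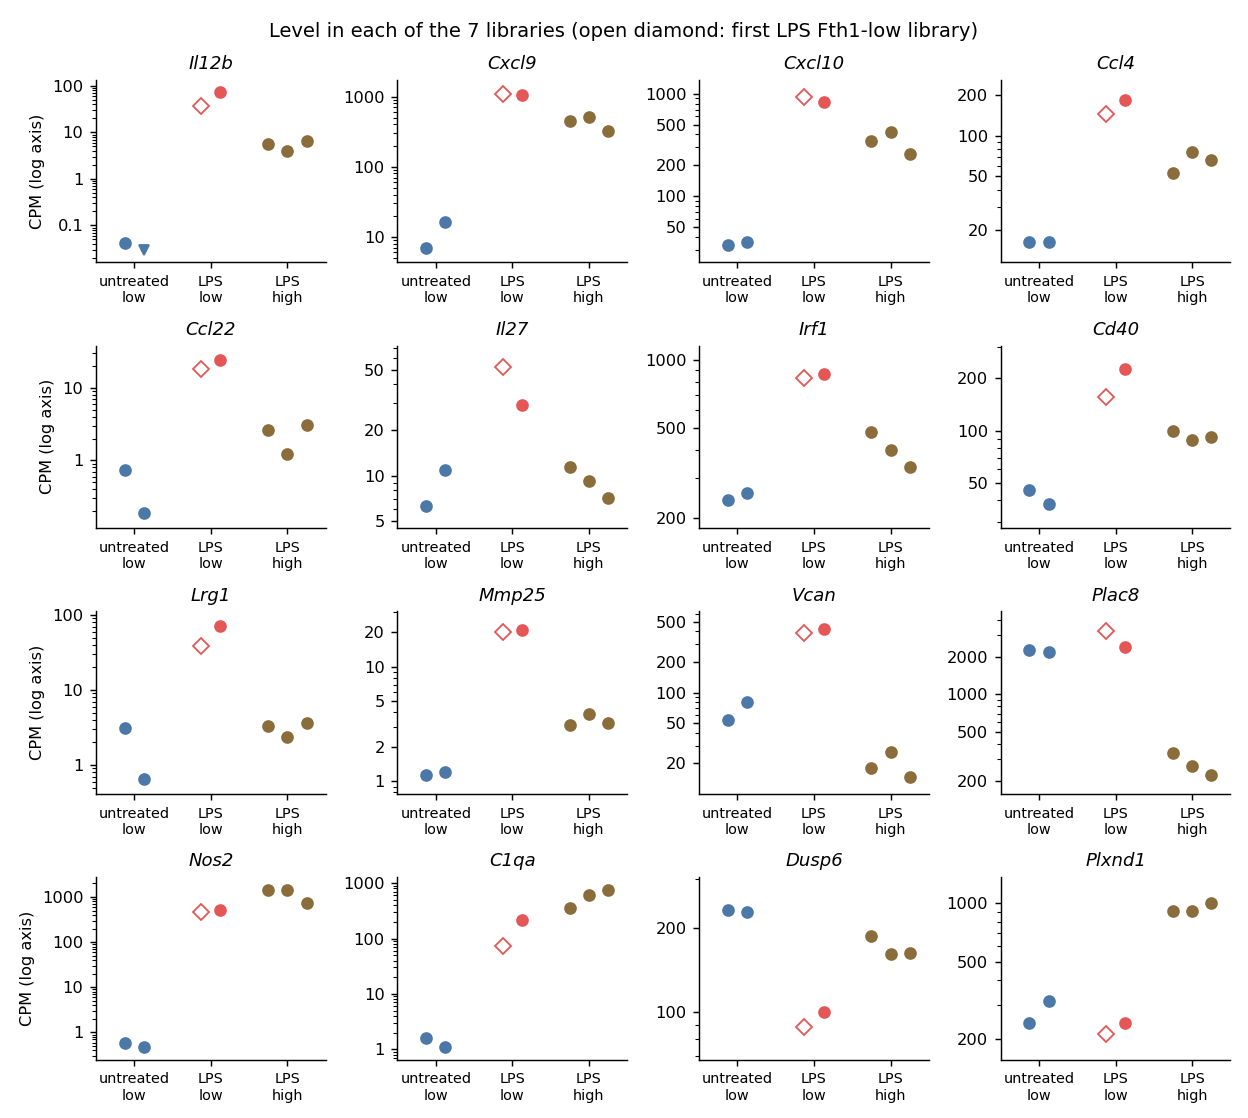
CPM (log axes) of 16 genes in each of the 7 libraries, with untreated Fth1-low in blue, LPS Fth1-low in red and LPS Fth1-high in brown. The open diamond is the shallow first LPS Fth1-low library, and the triangle for Il12b marks a library with 0 counts drawn at the foot of the axis. The diamonds and red points are highest from Il12b to Plac8, between the groups for Nos2 and C1qa, and lowest for Dusp6 and Plxnd1.

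Markers of circulating monocytes differed mostly from LPS Fth1-high cells. Of 12 classical monocyte markers 4 were higher, Vcan, Plac8 and Ifitm6 among them, and 0 lower, against 1.16% and 0.022% of all tested genes. Of the 12, 7 were higher than in LPS Fth1-high cells, against 4.57% of all tested genes. Vcan, which encodes the matrix proteoglycan versican, measured 54.2 and 81.0 CPM in untreated cells, 387 and 426 CPM in LPS Fth1-low cells and 18.0, 26.1 and 14.8 CPM in LPS Fth1-high cells. It was above both groups, by 2.59 (SE 0.32, adjusted p = 0.0018) and 4.37 (SE 0.29, adjusted p = 9.51e-05), and stayed called against their mean without any 1 library. As a peak its adjusted p was 0.0597. Vcan overlaps 2 gene models on the opposite strand.

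Plac8 and Ifitm6, from the same list, were higher than in LPS Fth1-high cells and not called against untreated cells. Plac8 was at 3279.6 and 2408 CPM against 2266 and 2192 CPM in untreated and 224 to 336 CPM in LPS Fth1-high cells. Ifitm6, of the interferon-induced transmembrane family, lay below untreated cells, at 295 and 189 CPM against 488 and 327 CPM, with 1.42 to 2.59 CPM in LPS Fth1-high cells. The coagulation factor gene F5, which is on none of the lists, measured 39.0 and 50.9, then 58.6 and 74.3, then 0.796, 0.244 and 1.20 CPM. It overlaps Gm16588 on the same strand and Gm16548 on the opposite strand. For F5 the call against the mean (3.54, adjusted p = 0.00149) was lost without the second LPS Fth1-low library (3.31, 0.0686). The chemokine receptor gene Ccr2 measured 894 and 1545 CPM against 1389.8 and 1252 CPM in untreated and 148 to 360 CPM in LPS Fth1-high cells, and was not called (1.16, adjusted p = 0.255).

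Lrg1, Mmp25 and Prtn3 were named by the size of their difference and by no list. Lrg1, a leucine-rich glycoprotein found in neutrophil granules, measured 3.08 and 0.653 CPM in untreated cells, 38.5 and 70.6 CPM in LPS Fth1-low cells and 3.32, 2.40 and 3.64 CPM in LPS Fth1-high cells. Mmp25, a membrane-bound matrix metalloproteinase of leukocytes, measured 1.12 and 1.21, then 20.1 and 21.0, then 3.12, 3.90 and 3.25 CPM. Prtn3, the granule protease proteinase 3, measured 2.25 and 1.68, then 43.5 and 14.1, then 0.995, 1.18 and 0.954 CPM. In all 3 the LPS Fth1-low libraries were above every other library, with the first library resting on 23, 12 and 26 counts. On the opposite strand Mmp25 overlaps AC154766.2 and AC154766.3, and Prtn3 overlaps Plppr3. Against LPS Fth1-high cells the log2 differences were 4.20, 2.59 and 4.66 (adjusted p = 0.00111, 0.00131 and 9.08e-04), and against untreated cells 4.82, 4.14 and 3.74 (adjusted p = 0.00197, 4.10e-04 and 0.00792). As peaks Lrg1 and Mmp25 had an adjusted p of 0.0597 and Prtn3 of 0.176. Mmp25 and Prtn3 stayed called against the mean without any 1 library, and Lrg1 lost the call without the second LPS Fth1-low library (3.95, 0.0634). Il1r2, the decoy receptor of interleukin-1, measured 16.2 and 16.1, then 53.6 and 59.5, then 14.1, 9.43 and 8.38 CPM, and was chosen after its values were seen. Its call (2.13, adjusted p = 0.00184) was lost without the second LPS Fth1-low library (0.0647).

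None of the 12 tested neutrophil markers was called, but the list leaned upward. The contrast was positive for 11 and negative for 1, against 46% positive among all tested genes, with a median log2 difference of 1.42. The LPS Fth1-low mean was highest for 9 of the 12, against 24.9% of all tested genes. Both LPS Fth1-low libraries were above the other 5 for 3 of them, against 3.11%. The calprotectin gene S100a9 measured 13.7 and 6.90, then 23.4 and 48.9, then 3.65, 8.49 and 11 CPM (2.12, SE 0.43, adjusted p = 0.0631). S100a8 measured 11.6 and 5.50, then 63.6 and 82.0, then 34.4, 87.9 and 48.9 CPM (1.74, adjusted p = 0.0875). The marker list summed to 733 and 847 CPM in LPS Fth1-low, 421 and 452 CPM in untreated and 618 to 1369 CPM in LPS Fth1-high cells, and Ly6g, Elane and Mpo did not pass the count filter. What part such cells have in Lrg1, Mmp25 and Prtn3 was not tested.

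Other genes high in LPS Fth1-low cells by the rule for named genes were Dmkn, Timp1, Ocstamp and Dnase1l3. Timp1, the tissue inhibitor of metalloproteinases, measured 0.583 and 0.373, then 21.8 and 9.57, then 1.39, 2.93 and 4.88 CPM. It overlaps Syn1 on the opposite strand. Dnase1l3, a secreted nuclease, measured 1.62 and 2.33, then 73.7 and 67.0, then 57.7, 25.8 and 34.3 CPM. Ocstamp, which takes part in the fusion of osteoclasts, measured 4.33 and 8.58, then 18.4 and 17.5, then 1.06, 0.569 and 0.636 CPM. All 3 had both LPS Fth1-low libraries on top. The Timp1 call (3.52, adjusted p = 0.0171) was lost without either LPS Fth1-low library (0.10 and 0.0648) or either untreated library (0.0769 and 0.0908), and those of Ocstamp and Dnase1l3 without the second LPS Fth1-low library (0.0728 and 0.0634). Dmkn (4.51, adjusted p = 0.0147) was lost without either LPS Fth1-low library (0.0921 and 0.0728) or either untreated library (0.0719 and 0.0547).

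Of the 40 genes that were higher still in LPS Fth1-high cells, Nos2, Acod1, Inhba and the C1q genes show the order. Nos2, the inducible nitric oxide synthase, measured 0.583 and 0.466 CPM in untreated cells, 459 and 503 CPM in LPS Fth1-low cells and 1399, 1459 and 725 CPM in LPS Fth1-high cells. It was higher than in untreated cells by 9.78 (SE 0.51, adjusted p = 2.2e-05) and lower than in LPS Fth1-high cells by a log2 difference of -1.31 (SE 0.31, adjusted p = 0.0329). Inhba, the activin A subunit, had 0 counts in both untreated libraries, 20.1 and 42.4 CPM in LPS Fth1-low and 95, 149 and 170 CPM in LPS Fth1-high cells. Its rise over untreated cells was at least 233-fold in the first and 491-fold in the second LPS Fth1-low library, against a floor of 3 counts over the untreated group, and its call against the mean (5.14, adjusted p = 0.00517) was lost without the second LPS Fth1-low library (4.32, 0.0965). The complement gene C1qa measured 1.58 and 1.12, then 72.0 and 219, then 362, 614 and 737 CPM. The first LPS Fth1-low library was also the lower of the pair for C1qb (53.6 and 142 CPM) and C1qc (73.7 and 181 CPM). The calls of the 3 C1q genes against the mean were lost without the second LPS Fth1-low library, with adjusted p-values of 0.141 to 0.194, and without either untreated library. Acod1, the itaconate synthase, was at 598 and 1096 CPM against 1.42 and 1.40 CPM in untreated and 1106 to 1891 CPM in LPS Fth1-high cells. Inhba and Acod1 were chosen after their values were seen.

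Of the 26 genes highest in untreated cells, Flt3 and Ifitm6 stood within the marker lists. Flt3, a receptor of dendritic cells and their precursors, measured 33.9 and 38.1, then 13.4 and 38.9, then 0.796, 0.488 and 0.813 CPM. The first LPS Fth1-low library was below both untreated libraries and the second level with them. The call (2.58, adjusted p = 0.00389) was lost without the second LPS Fth1-low library (1.40, 0.147). Of 14 conventional dendritic cell markers 2 were higher, Flt3 and Ccl22, and 0 lower, against 1.16% and 0.022% of all tested genes. The contrast was positive for all 14, against 46% of tested genes, with a median log2 difference of 1.21. The median was 2.21 from LPS Fth1-high and -0.33 from untreated cells, so the list differed mainly from LPS Fth1-high cells. Its markers summed to 219 and 185 CPM, against 279 and 296 CPM in untreated and 31.7 to 50.6 CPM in LPS Fth1-high cells. Both LPS Fth1-low libraries were above the other 5 for 5 of them, against 3.11% of tested genes. Against single groups, 7 were higher and 0 lower than in LPS Fth1-high cells, and 1 was higher and 1 lower than in untreated cells. The matching shares of all tested genes were 4.57%, 3.68%, 2.99% and 0.629%.

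Only 3 genes were lower than the mean of both groups. Dusp6, a phosphatase that inactivates ERK (chromosome 10, 99263231 to 99267489, plus strand, mm10), measured 231 and 227 CPM in untreated cells, 88.7 and 99.9 CPM in the first and second LPS Fth1-low library, and 187, 162 and 162 CPM in LPS Fth1-high cells. Both LPS Fth1-low libraries were below all others, as in 5.35% of tested genes. Dusp6 was lower than in untreated cells (log2 difference -1.27, SE 0.21, adjusted p = 0.00945) and than in LPS Fth1-high cells (-0.84, SE 0.19, adjusted p = 0.0273), and its adjusted p as a dip was 0.901. Plxnd1, a semaphorin receptor, measured 242 and 312, then 211 and 240, then 916, 917 and 1007 CPM. Hmox1, which encodes heme oxygenase 1 and releases iron from heme, measured 116 and 118, then 98.8 and 127, then 444, 619 and 596 CPM. For Plxnd1 and Hmox1 the LPS Fth1-low and untreated values lay side by side (log2 differences -0.29 and -0.03, adjusted p = 0.681 and 0.988). The contrasts of the 3 were -1.05, -1.18 and -1.15 (adjusted p = 0.029, 0.029 and 0.0449). The Dusp6 call was lost in all 7 fits that left out 1 library (adjusted p up to 0.11), and those of Plxnd1 and Hmox1 in 6 of 7 (up to 0.169 and 0.249).

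Genes next in line to be called lower than the mean of both groups, with both LPS Fth1-low libraries lowest, did not pass. Lima1, an actin-binding gene, measured 51.2 and 52.8, then 13.4 and 21.4, then 29.7, 29.5 and 36.3 CPM (-1.07, adjusted p = 0.0631). Foxred2 measured 28.6 and 41.3, then 15.1 and 15.1, then 30.1, 35.4 and 27.6 CPM (-1.13, adjusted p = 0.0777). The first LPS Fth1-low library rests on 8 counts for Lima1 and 9 for Foxred2. The exact Poisson intervals are 5.78 to 26.4 and 6.89 to 28.6 CPM, and that of Foxred2 reaches the third LPS Fth1-high library. Arrdc3, an arrestin-domain gene, measured 76.8 and 141, then 40.2 and 51.5, then 134, 121 and 129 CPM (-1.32, adjusted p = 0.0656). Of 26 lysosome genes 0 were called in either direction, and the contrast was negative in all 26 against 54% of tested genes. Against single groups, 12 were lower than in LPS Fth1-high cells (3.68% of all tested genes) and 0 lower than in untreated cells. The median log2 difference was -1.06 from LPS Fth1-high and -0.05 from untreated cells, so the list differed mainly from LPS Fth1-high cells. From the mean of both groups the median was -0.53 with both libraries, -0.16 without the first and -0.98 without the second LPS Fth1-low library.

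Iron handling genes, the family of the sorted reporter, gave 1 gene higher and 1 lower among 23 tested, against 1.16% and 0.022% of all tested genes. The lower one was Hmox1 and the higher one Steap4, a metalloreductase, at 3.35 and 6.27 CPM against 0.0833 and 0.186 CPM in untreated and 0.464 to 1.17 CPM in LPS Fth1-high cells. The first Steap4 value rests on 2 counts, and the call (4.09, adjusted p = 0.0147) was lost without the second LPS Fth1-low library (3.42, 0.219) or either untreated library (0.0964 and 0.0627). Against LPS Fth1-high cells alone, 7 of the 23 were lower and 1 higher, against 3.68% and 4.57% of all tested genes. Fth1 is among the 7, and its difference is a check of the sort and not a result. NRF2 targets gave 1 lower, again Hmox1, and 0 higher of 13. No gene was called against the mean of both groups among 86 ribosomal protein, 78 oxidative phosphorylation, 28 cell cycle, 25 immediate early, 18 glycolysis, 22 cholesterol synthesis, 21 ATF4 and unfolded protein response, 13 lipid-associated macrophage, 13 BCL2 family and 10 heat shock genes. A gene between the other groups may or may not be called against their mean, so counts against single groups follow for some lists. Lower than in LPS Fth1-high cells were 12 glycolysis and 8 lipid-associated macrophage genes, and 3 of each list were higher than in untreated cells. Of all tested genes, 3.68% were lower than in LPS Fth1-high and 2.99% higher than in untreated cells. Of the cholesterol synthesis genes, 5 were higher than in LPS Fth1-high and 5 lower than in untreated cells, against 4.57% and 0.629% of all tested genes. The ribosomal protein and heat shock lists had 0 calls against either group.

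Among receptors for migration and adhesion, 3 of 18 were higher, Ccr1 among the 3, and 0 lower, against 1.16% and 0.022% of all tested genes. Ccr1, a chemokine receptor of monocytes, measured 29.9 and 13.6, then 167 and 253, then 136, 226 and 178 CPM. The LPS Fth1-low values overlapped those of LPS Fth1-high cells and lay above untreated cells. Its call against the mean (1.76, adjusted p = 0.0291) was lost without the first (0.0782) or second LPS Fth1-low library (0.139), the second untreated (0.0714) or the third LPS Fth1-high library (0.0596).

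Some markers of cells outside the gate were uneven between the pair. Fibroblast markers summed to 139 and 39.1 CPM in the first and second LPS Fth1-low library against 12.2 to 69.2 CPM elsewhere, and endothelial markers to 357 and 215 CPM against 53.0 to 592 CPM. T cell markers summed to 55.2 and 17.7 CPM against 3.29 to 42.4 CPM, and NK cell markers to 58.6 and 22.7 CPM against 5.2 to 30.0 CPM. The first library was the highest of all 7 for fibroblast, T cell, NK cell and plasmacytoid dendritic cell markers. Of 9 tested fibroblast, 10 endothelial, 11 epithelial, 7 B cell, 8 T cell, 8 NK cell, 4 plasmacytoid dendritic and 12 alveolar macrophage markers 0 were called in either direction. The part of these cells in the called genes was not tested. Nonclassical monocyte markers summed to 4256 and 4663 CPM in LPS Fth1-low cells, between 9945 and 11299 CPM in untreated and 1319 to 1586 CPM in LPS Fth1-high cells. None of the 11 was called against the mean of both groups. Of the 11, 9 were higher than in LPS Fth1-high cells and 4 lower than in untreated cells, against 4.57% and 0.629% of all tested genes. Classical monocyte markers summed to 15899 and 17777 CPM, against 7276 to 11741 CPM in the other groups.

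**Figure D5:**
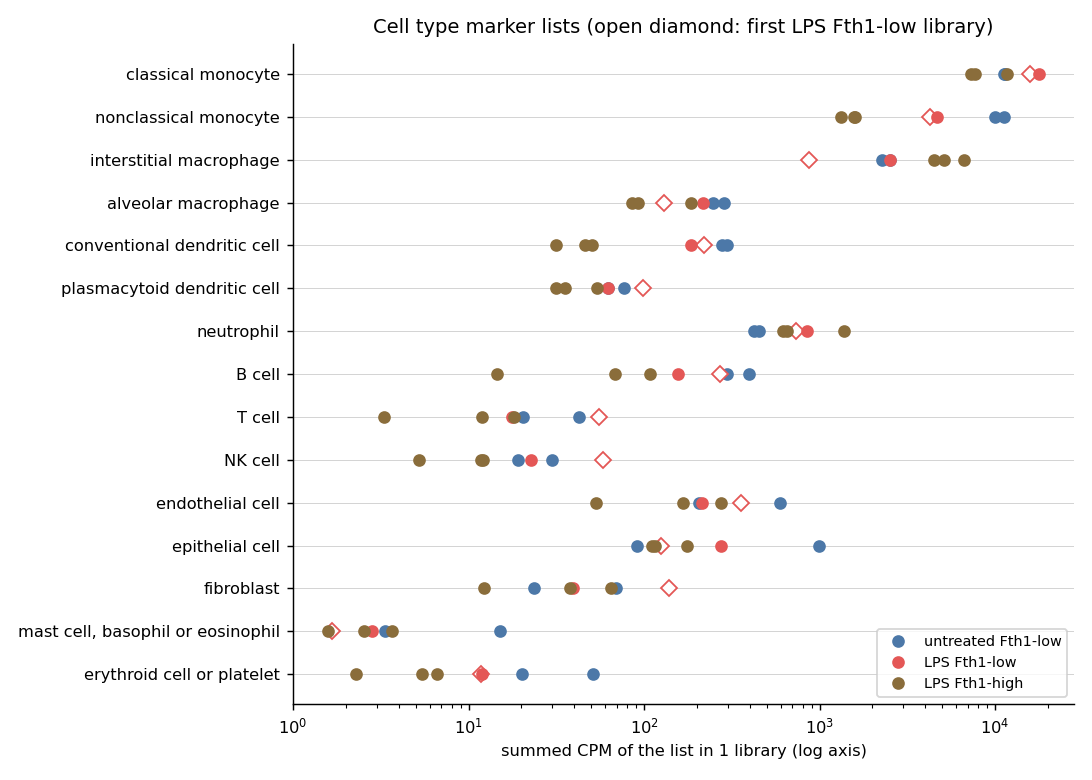
Summed CPM of each cell type marker list in each of the 7 libraries, on a log axis, with untreated Fth1-low in blue, LPS Fth1-low in red and LPS Fth1-high in brown. The open diamond is the first LPS Fth1-low library, which is the rightmost point for fibroblast (139 CPM), T cell, NK cell and plasmacytoid dendritic cell markers, while both LPS Fth1-low libraries are rightmost for classical monocyte markers.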

How the data were processed

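Gene counts per library were deposited by the authors as one table of whole numbers for 7 libraries. DRAGEN, DESeq2 and the mm10 build are named per the submitters' processing notes, without versions, and the strand setting of the counting is not given in the sources used here. Genes with enough counts (edgeR filterByExpr) were fitted in 1 model of 3 groups with edgeR 4.0.16 in R 4.3.3 (TMM scaling, robust quasi-likelihood test, Benjamini-Hochberg adjustment over 13665 genes, threshold 0.05). CPM use the TMM-scaled library size. DESeq2 1.42.0 and limma 3.58.1 served as alternatives, and the scripts were tested on simulated data. Depth ran from 637787 to 27997007 counts, and intervals cover counting error only.

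Named genes were up to 15 called genes per direction with the largest difference, no overlap and at least 10 CPM, filled to 10 by p where fewer passed, peaks or dips, and up to 4 called members of each list. Other members of a list were chosen after their values were seen. The comparison, gene lists and members were chosen with earlier results of these data known. Positions are from GENCODE vM21, which matched 98.2% of tested symbols, and promoters from RefSeq on GRCm38.p6. Overlaps with other genes are given above for some of the overlapping genes only. Some genes of the lists are not reported here.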

Additional observations from a re-analysis of the deposited data

How the results depend on the processing

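Higher calls numbered 348 with DESeq2, 98 with limma-voom and quality weights, 87 with limma-trend and 334 with the replicate number as a block, and 50 to 164 with 1 library left out, against 158. Lower calls numbered 5 with upper quartile scaling, 50 with DESeq2, 15 with no filter, 7 with a mean of 5 CPM, 22 with libraries thinned to equal depth, 13 against the mean of the 5 other libraries and 32 with the block, and 0 to 8 with 1 library left out, against 3. Peaks numbered 23 with DESeq2, 3 with limma-voom, 0 with limma-trend, 14 with no filter, 7 when thinned and 15 with the block, and 0 to 2 with 1 LPS Fth1-high library left out, against 1. With only the shallow first LPS Fth1-low library left in its group, the genes passing as peaks included ribosomal RNA genes such as n-R5s117 and mt-Rnr1. No gene described above was among them. Dips numbered 0 under all 21 alternatives. The 158 genes kept a positive difference under each alternative that tested them. Over 71 named genes, 1279 of 1484 values stayed on their side of the threshold, 162 lost and 43 gained the call, and 0 turned. Same-numbered libraries correlated in their deviations at -0.04 (untreated with LPS Fth1-low), 0.10 and 0.29 (untreated with LPS Fth1-high), and 0.27 and 0.09 (LPS Fth1-low with LPS Fth1-high). In a group of 2 libraries the deviations mirror each other, so these values are not independent of one another. Nothing in the labels ties the numbers together. For the libraries numbered 1 of both LPS groups the correlation was 0.27, and whether they share a factor was not tested further. The cause of these shifts was not tested. Without the second LPS Fth1-low library the median of all genes was -0.25, against -0.04, and a gene under 5.02 CPM cannot be told from 0 in the first.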
